A study of Mus musculus with 8 samples.

Results

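The 10 genes described here encode heat shock proteins and chaperones, out of 54446 gene rows counted in RNA of sorted mouse eosinophils. They were chosen by symbol, matched through Ensembl identifiers, and all 10 passed the filter on low counts. The 5 inducible members were Hspa1a, Hspa1b, Dnajb1, Hsph1 and Hsp90aa1. The 5 constitutive members were Hspa8 and Hsp90ab1 of the cytosol, Hspa5 of the endoplasmic reticulum, and Hspd1 and Hspe1 of the mitochondrion. RNA was sequenced by CEL-Seq, which reads transcripts near their 3' end. The 8 libraries came from SiglecFhi/CD101+ eosinophils (n = 2, replicates 1 and 2), Siglec-Fint/CD101- eosinophils (n = 2, replicates 1 and 2) and resident eosinophils (n = 4, replicates 3 to 6), where Siglec-F and CD101 are the surface proteins used to tell the cells apart. All samples were of the C57BL/6 strain, and the series is described as sorted cells from a mouse asthma model. The labels give no treatment, age, sex or animal, so the p-values measure the spread between these libraries, which may be technical.

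Chaperones bind unfolded proteins and help them reach or regain their shape. When unfolded protein builds up in the cytosol, the transcription factor HSF1 binds heat shock elements, inverted repeats of the unit GAA, and raises transcription of the inducible members, while the constitutive members serve folding in unstressed cells. The endoplasmic reticulum has its own programme, the unfolded protein response, which acts on Hspa5 through an element that joins a CCAAT box to CCACG. Taking a tissue apart and sorting its cells is itself known to raise transcripts of inducible heat shock and immediate early genes.

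The promoters of Hspa1a, Hspa1b and Hspa5 are shown because they set the inducible cytosolic pair beside the endoplasmic reticulum member. Each is the 250 bases before the RefSeq start on GRCm38.p6, Hspa1a at chr17:34972157-34972406 (minus strand), Hspa1b at chr17:34959239-34959488 (minus strand) and Hspa5 at chr2:34771840-34772089 (plus strand). The RefSeq start of Hspa5 lies downstream of the outermost start that GENCODE gives the gene. Capitals mark the heat shock element in the first pair and the endoplasmic reticulum stress response element in Hspa5.
Hspa1a: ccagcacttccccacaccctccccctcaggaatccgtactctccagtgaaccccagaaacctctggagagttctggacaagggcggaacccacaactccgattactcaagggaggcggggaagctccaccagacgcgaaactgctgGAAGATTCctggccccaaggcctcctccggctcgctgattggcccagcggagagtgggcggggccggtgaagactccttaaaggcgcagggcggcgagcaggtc
Hspa1b: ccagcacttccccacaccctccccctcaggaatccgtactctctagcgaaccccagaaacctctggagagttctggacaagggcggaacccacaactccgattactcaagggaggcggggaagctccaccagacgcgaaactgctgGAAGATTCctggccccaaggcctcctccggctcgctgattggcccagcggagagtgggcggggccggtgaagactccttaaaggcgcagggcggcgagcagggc
Hspa5: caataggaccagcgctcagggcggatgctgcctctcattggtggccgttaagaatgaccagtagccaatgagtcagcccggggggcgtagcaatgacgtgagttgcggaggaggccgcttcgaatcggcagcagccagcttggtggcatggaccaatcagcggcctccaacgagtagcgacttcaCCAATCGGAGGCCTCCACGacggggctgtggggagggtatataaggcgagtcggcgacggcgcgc

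The Hspa1a and Hspa1b promoters differed at 3 of 250 bases, which lie 207, 204 and 2 bases before the start. Both held GAAGATTC, a match to GAANNTTC, from 104 to 97 bases before the start. GAANNTTC was found on either strand in 6.69% of 32851 mouse promoter windows of the same length. Hspa5 held the element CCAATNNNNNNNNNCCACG from 65 to 47 bases before its start, a run present in 0.113% of windows, and 4 matches to CCAAT, 1 of which is the start of that element, where 33.8% of windows held CCAAT. Hspe1 and Hspd1 are transcribed away from each other from overlapping starts and share the stretch below, at chr1:55088053-55088082 (plus strand, GRCm38.p6). For Hspd1 it lies before a RefSeq start (window chr1:55087933-55088182) but inside the span that GENCODE gives the gene. The Hspd1 window before the outermost GENCODE start, chr1:55088244-55088493, held 0 of the heat shock motifs searched. The capitals mark a run of alternating GAA and TTC units.
Hspe1 and Hspd1: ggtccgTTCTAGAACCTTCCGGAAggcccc

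That run held TTCNNGAA, found in 7.17% of windows, and on both strands the longer GAANNTTCNNGAA, found in 0.466%. These motifs overlap each other. Hsph1 held TTCTCGAA, a match to TTCNNGAA, and Dnajb1 held none of the heat shock motifs searched. The longer motif was thus in windows of Hspe1 and Hspd1, classed here as constitutive. It had no exact match in those of the inducible Hspa1a, Hspa1b, Hsph1 and Dnajb1. Only exact matches were searched, so runs with a mismatched base were not seen. Whether motif and class go together was not tested. Promoter windows matched 7 of the 10 genes. No window was used for Hspa8, Hsp90aa1 and Hsp90ab1. A match is a run of letters and not a measured binding site.

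The libraries differed in depth and in makeup. Totals were 1513517 and 3109428 counts in SiglecFhi/CD101+, 1517159 and 2990294 in Siglec-Fint/CD101-, and 5600610 to 11583550 in resident libraries. Genes of the mitochondrial genome took 70.6% to 82.2% of counts in SiglecFhi/CD101+, 69.9% to 83.9% in Siglec-Fint/CD101- and 38.6% to 61.8% in resident libraries. Outside those genes the 4 subset libraries held 444902 to 552121 counts, against 2137819 to 5296468 in resident libraries. Of 9 defining eosinophil markers, Epx and Il5ra were at 0 in all 4 subset libraries, Ear6 was also at 0 in SiglecFhi/CD101+ and Siglecf in Siglec-Fint/CD101-, while all 9 had counts in resident libraries. The summed level of these 9 markers was 109 to 390 CPM in SiglecFhi/CD101+, 153 to 250 CPM in Siglec-Fint/CD101- and 185 to 453 CPM in resident libraries. Levels are given as CPM, counts set to a common library size with edgeR's TMM factors, unless another scale is named. The deposited tables mark the groups with letters, I, R and N, that the labels do not explain, and every value is that of the labelled group.

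The inducible Hsp70 genes Hspa1a and Hspa1b were lower in each of the 4 subset libraries than in any resident library, by about 3-fold on average, but neither passed the test across all genes. None of the 10 members was called in any of 4 comparisons, namely SiglecFhi/CD101+ over resident, Siglec-Fint/CD101- over resident, both subsets over resident, and SiglecFhi/CD101+ over Siglec-Fint/CD101-. The test was edgeR's quasi-likelihood test over 11828 genes at a Benjamini-Hochberg adjusted p under 0.05, and DESeq2 and limma-voom also called 0 members. Of all genes tested, 0.0254%, 0.0592%, 0.0254% and 0.00845% were called in these 4 comparisons. At an unadjusted p under 0.05, 2, 3, 3 and 0 members were lower and 0 were higher, where 13.1%, 13.8%, 21% and 7.96% of all genes were lower and 3.65%, 1.9%, 1.91% and 9.98% were higher. In bulk RNA, fewer cells of a type and less RNA per cell cannot be told apart.

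Hspa1a (ENSMUSG00000091971, chr17:34969190-34972156, minus strand, GRCm38) and Hspa1b (ENSMUSG00000090877, chr17:34956436-34959238, minus strand) lie 9951 bases apart and encode nearly the same inducible Hsp70, which refolds damaged protein in the cytosol. Hspa1a measured 202 and 116 CPM in SiglecFhi/CD101+, 188 and 266 CPM in Siglec-Fint/CD101-, and 300, 900, 346 and 710 CPM in resident replicates 3 to 6. Hspa1b measured 180 and 249 CPM in SiglecFhi/CD101+, 364 and 271 CPM in Siglec-Fint/CD101-, and 456, 1136, 527 and 1042 CPM in resident replicates 3 to 6. For both genes the subset and resident values did not overlap, and resident replicates 4 and 6 stood above replicates 3 and 5. Of all genes tested, 12% were lower without overlap in this comparison of both subsets with resident, against 2 of the 10 members.

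Over both subsets, Hspa1a averaged 193 ± 61.5 CPM (SD, n = 4), against 564 ± 289 CPM in resident libraries (SD, n = 4), a 2.96-fold lower level. Its log2 fold change was -1.57 ± 0.42 (SE, edgeR adjusted p = 0.101). Hspa1b averaged 266 ± 75.9 CPM (SD, n = 4), against 790 ± 349 CPM in resident libraries (SD, n = 4), a 3.03-fold lower level. Its log2 fold change was -1.60 ± 0.37 (SE, edgeR adjusted p = 0.1002). The median log2 fold change of all 11828 genes in this comparison was -1.28, and the log2 fold changes of Hspa1a and Hspa1b minus that median were -0.29 and -0.32. That median depended on the processing, at -0.88 with RLE factors and -0.047 with DESeq2. Minus the median of their own comparison, the pair was at -1.11 and -1.17 in SiglecFhi/CD101+ over resident. In Siglec-Fint/CD101- over resident the pair was at -0.31 and -0.32. Without the filter on low counts both genes passed the threshold in this comparison (edgeR adjusted p = 0.0243 and 0.00665), as they did with scaling by library totals alone (edgeR adjusted p = 0.0263 and 0.0309). Genome-wide calls rose as well, from 3 higher and 0 lower to 38 and 163 without the filter. With library totals alone they were 15 higher and 758 lower. With CPM taken of the counts outside the mitochondrial genes, Hspa1b stayed apart, at 614 to 919 in SiglecFhi/CD101+ and 908 to 1094 in Siglec-Fint/CD101-, against 1276 to 2960 in resident. On that scale Hspa1a overlapped, at 429 to 690 in SiglecFhi/CD101+ and 567 to 891 in Siglec-Fint/CD101-, against 841 to 2303 in resident. Of the 50-base stretches in the last 500 bases of the Hspa1a and Hspa1b transcripts, 0 occur in another gene, so reads near the 3' end can tell the pair apart. Hspa1a overlaps Gm20481 on the opposite strand, and the strand setting of the counting is not given in the sources used here.

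**Figure D1:**
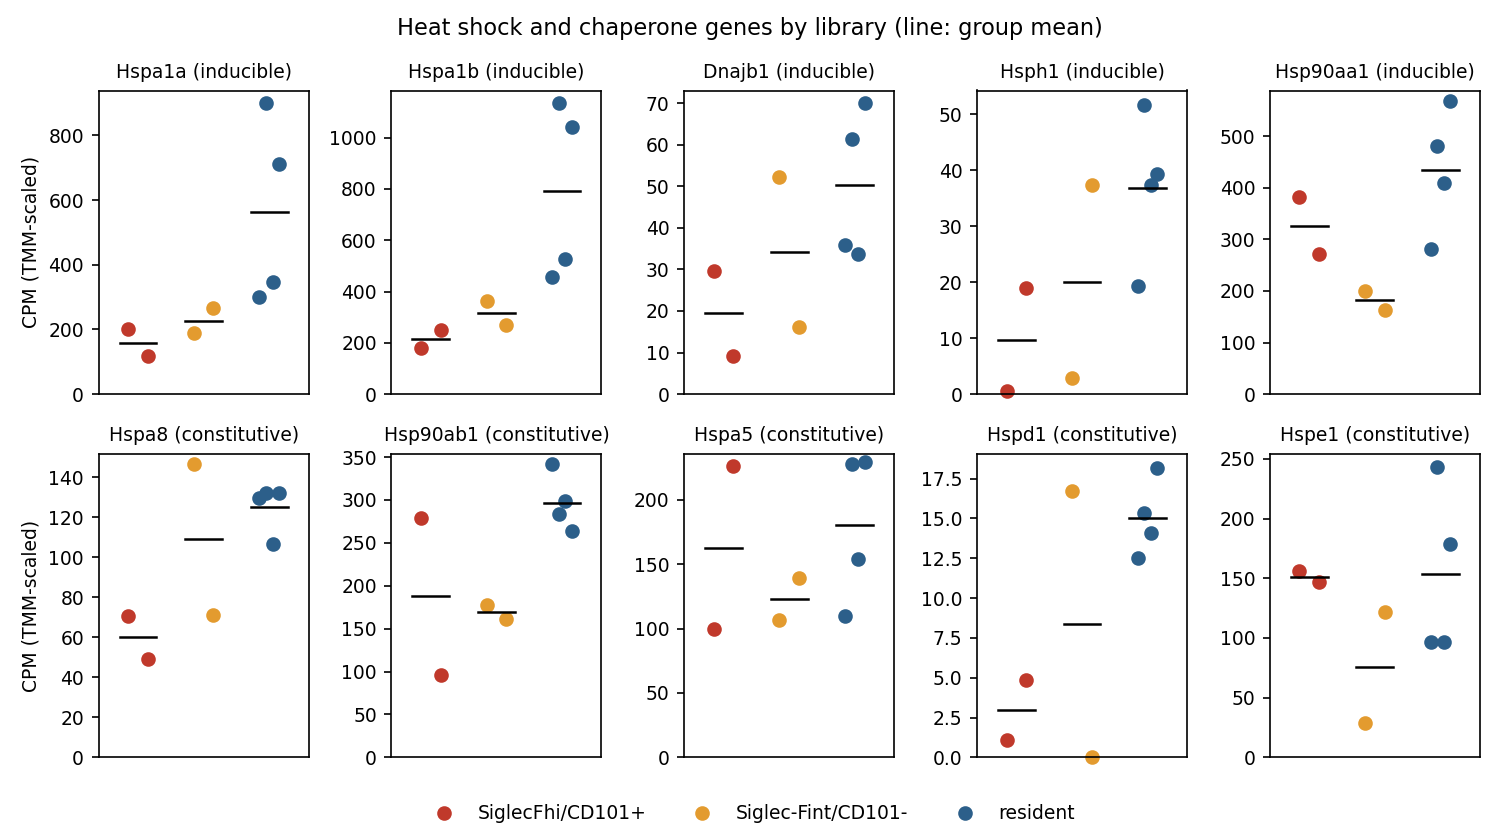
Level of each member (CPM, TMM-scaled, linear axes) in each library, SiglecFhi/CD101+ (n = 2), Siglec-Fint/CD101- (n = 2) and resident (n = 4, replicates 3 to 6 from left to right), with a line at the group mean. All 4 subset libraries lie below all 4 resident libraries for Hspa1a and Hspa1b and for none of the other 8 members.

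Each subset alone also lay below all resident libraries for both genes. In SiglecFhi/CD101+, Hspa1a averaged 159 ± 60.5 CPM (SD, n = 2), with a log2 fold change over resident of -1.82 ± 0.55 (SE, edgeR adjusted p = 0.176). Hspa1b averaged 215 ± 49.3 CPM there (SD, n = 2), with a log2 fold change of -1.88 ± 0.49 (SE, edgeR adjusted p = 0.133). In Siglec-Fint/CD101-, Hspa1a averaged 227 ± 55.2 CPM (SD, n = 2), with a log2 fold change of -1.31 ± 0.53 (SE, edgeR adjusted p = 0.296). Hspa1b averaged 317 ± 65.2 CPM there (SD, n = 2), with a log2 fold change of -1.32 ± 0.47 (SE, edgeR adjusted p = 0.288). These comparisons share the resident libraries. Between the subsets, SiglecFhi/CD101+ over Siglec-Fint/CD101-, the log2 fold changes were -0.51 ± 0.58 for Hspa1a and -0.56 ± 0.52 for Hspa1b (SE, edgeR adjusted p = 0.671 and 0.588).

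Hsp90aa1 (ENSMUSG00000021270, chr12:110690605-110702728, minus strand) encodes the inducible cytosolic Hsp90, which matures kinases and receptors. It measured 382 and 272 CPM in SiglecFhi/CD101+, 201 and 164 CPM in Siglec-Fint/CD101-, and 281, 481, 410 and 569 CPM in resident replicates 3 to 6. The Siglec-Fint/CD101- values were below every other library, and the SiglecFhi/CD101+ values overlapped the resident ones. The log2 fold change was -1.26 ± 0.45 in Siglec-Fint/CD101- over resident (SE, edgeR adjusted p = 0.288). In SiglecFhi/CD101+ over resident it was -0.41 ± 0.43 (SE, edgeR adjusted p = 0.653), and its sign turned with another scaling, to 0.054 with RLE factors. SiglecFhi/CD101+ over Siglec-Fint/CD101- gave 0.84 ± 0.50 (SE, edgeR adjusted p = 0.363), the smallest adjusted p of a member between the subsets.

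Dnajb1 and Hsph1 serve the inducible Hsp70, Dnajb1 as an Hsp40 that hands it unfolded protein and Hsph1 as the Hsp110 that exchanges its nucleotide. Dnajb1 (ENSMUSG00000005483, chr8:83608193-83612653, plus strand) measured 29.7 and 9.15 CPM in SiglecFhi/CD101+, 52.3 and 16.1 CPM in Siglec-Fint/CD101-, and 35.8, 61.5, 33.8 and 70.02 CPM in resident replicates 3 to 6. Siglec-Fint/CD101- replicate 1 lay within the resident range and the other 3 subset libraries lay below it. Hsph1 (ENSMUSG00000029657, chr5:149614287-149636376, minus strand) measured 0.530 and 18.9 CPM in SiglecFhi/CD101+, 2.91 and 37.3 CPM in Siglec-Fint/CD101-, and 19.2, 51.6, 37.3 and 39.4 CPM in resident replicates 3 to 6. The low Hsph1 values rest on 1 count in SiglecFhi/CD101+ replicate 1 and 4 counts in Siglec-Fint/CD101- replicate 1, and replicate 2 of the same groups had 31 and 60 counts. Both subsets over resident gave a log2 fold change of -0.96 ± 0.75 for Dnajb1 and -1.40 ± 1.05 for Hsph1 (SE, edgeR adjusted p = 0.463 and 0.444). With 1 library left out at a time the Dnajb1 value ran from -1.59, without Siglec-Fint/CD101- replicate 1, to -0.71, without resident replicate 6, and it was -1.56 without SiglecFhi/CD101+ replicate 1. The Hsph1 value ran from -3.55, without SiglecFhi/CD101+ replicate 2, to -0.98, without SiglecFhi/CD101+ replicate 1.

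Hspa8 (ENSMUSG00000015656, chr9:40800984-40810087, plus strand) encodes the constitutive Hsp70 that folds new protein and uncoats clathrin vesicles. It measured 70.5 and 49.4 CPM in SiglecFhi/CD101+, 147 and 71.4 CPM in Siglec-Fint/CD101-, and 130, 132, 107 and 132 CPM in resident replicates 3 to 6. The SiglecFhi/CD101+ values were below every other library, and Siglec-Fint/CD101- replicate 1 was above every other. The log2 fold change was -1.06 ± 0.62 in SiglecFhi/CD101+ over resident (SE, edgeR adjusted p = 0.373). In Siglec-Fint/CD101- over resident it was -0.20 ± 0.59 (SE, edgeR adjusted p = 0.890), and its sign turned with another scaling, to 0.17 with RLE factors. Of the 50-base stretches in the last 500 bases of the Hspa8 transcript, 81.8% also occur in predicted genes such as Gm15459, which held 0 counts in subset libraries and 7 in resident libraries. Whether the counting kept reads that fit several places is not given in the sources used here, so the Hspa8 level is uncertain, as are those of Hspe1 (53.2% shared) and Hsp90ab1 (7.76% shared).

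Hsp90ab1 (ENSMUSG00000023944, chr17:45567775-45573271, minus strand) encodes the constitutive cytosolic Hsp90. It measured 279 and 96.4 CPM in SiglecFhi/CD101+, 178 and 161 CPM in Siglec-Fint/CD101-, and 342, 284, 299 and 264 CPM in resident replicates 3 to 6. SiglecFhi/CD101+ replicate 1 lay within the resident range and the other 3 subset libraries lay below it. Both subsets over resident gave a log2 fold change of -0.73 ± 0.40 (SE, edgeR adjusted p = 0.284). The SD over resident libraries was 32.9 CPM around a mean of 297 CPM for this gene and 121 CPM around 435 CPM for Hsp90aa1 (n = 4 each).

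Taken over both subsets, the levels of the organelle chaperones overlapped with those in resident libraries. Hspa5 (ENSMUSG00000026864, chr2:34771970-34777547, plus strand), known as BiP, holds unfolded protein in the endoplasmic reticulum and restrains the sensors of the unfolded protein response. It measured 99.7 and 226 CPM in SiglecFhi/CD101+, 107 and 139 CPM in Siglec-Fint/CD101-, and 110, 228, 154 and 229 CPM in resident replicates 3 to 6. Both subsets over resident gave a log2 fold change of -0.35 ± 0.45 (SE, edgeR adjusted p = 0.681), and the sign turned with RLE factors, to 0.081. Hspd1 and Hspe1 encode the mitochondrial chaperonin Hsp60 and its lid Hsp10, and their genes overlap by 112 bases on opposite strands (Hspd1 ENSMUSG00000025980, chr1:55077835-55088243, minus strand, and Hspe1 ENSMUSG00000073676, chr1:55088132-55091307, plus strand). Hspe1 measured 156 and 147 CPM in SiglecFhi/CD101+, 29.1 and 122 CPM in Siglec-Fint/CD101-, and 96.9, 243, 96.2 and 179 CPM in resident replicates 3 to 6. In SiglecFhi/CD101+ over resident the Hspe1 log2 fold change was -0.023 ± 0.65 (SE, edgeR adjusted p = 0.991), with a sign that turned under RLE factors, to 0.45. Hspd1 measured 1.06 and 4.88 CPM in SiglecFhi/CD101+, 16.7 and 0 CPM in Siglec-Fint/CD101-, and 12.5, 15.3, 14.1 and 18.2 CPM in resident replicates 3 to 6. Hspd1 had 2 to 23 counts in 3 subset libraries and 0 in Siglec-Fint/CD101- replicate 2, where a count of 0 (floor of 3 counts) allows up to 1.003 CPM of the unscaled library total. On the TMM scale of the other values that limit is higher. Both subsets over resident gave -1.60 ± 1.31 for Hspd1 (SE, edgeR adjusted p = 0.488), and -6.14 without Siglec-Fint/CD101- replicate 1, which leaves that subset at 0, so that value depends on the prior count.

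Set side by side, the inducible members had lower median log2 fold changes over resident than the constitutive ones. The medians for the 5 inducible members, the 5 constitutive members and all 11828 genes were -1.82, -0.66 and -0.72 in SiglecFhi/CD101+ over resident. They were -1.26, -0.81 and -0.997 in Siglec-Fint/CD101- over resident, and -1.40, -0.63 and -1.28 in both subsets over resident. Minus the median of all genes, the log2 fold changes in both subsets over resident ran from -0.32 (Hspa1b) to 0.45 (Hsp90aa1) among inducible members and from -0.32 (Hspd1) to 0.93 (Hspa5) among constitutive ones. Of the 10 members, 6 (Hspa1a, Hspa1b, Dnajb1, Hsph1, Hspa8 and Hspd1) had their SiglecFhi/CD101+ values below all resident ones, as did 27.4% of all genes. For Siglec-Fint/CD101- these were 4 of 10, Hspa1a, Hspa1b, Hsp90aa1 and Hsp90ab1, against 29.3% of all genes. SiglecFhi/CD101+ over Siglec-Fint/CD101- gave medians of -0.56, 0.15 and 0, with 2 members lower without overlap (Hspa1b and Hspa8) and 2 higher (Hsp90aa1 and Hspe1), against 11.9% and 15.8% of all genes.

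**Figure D2:**
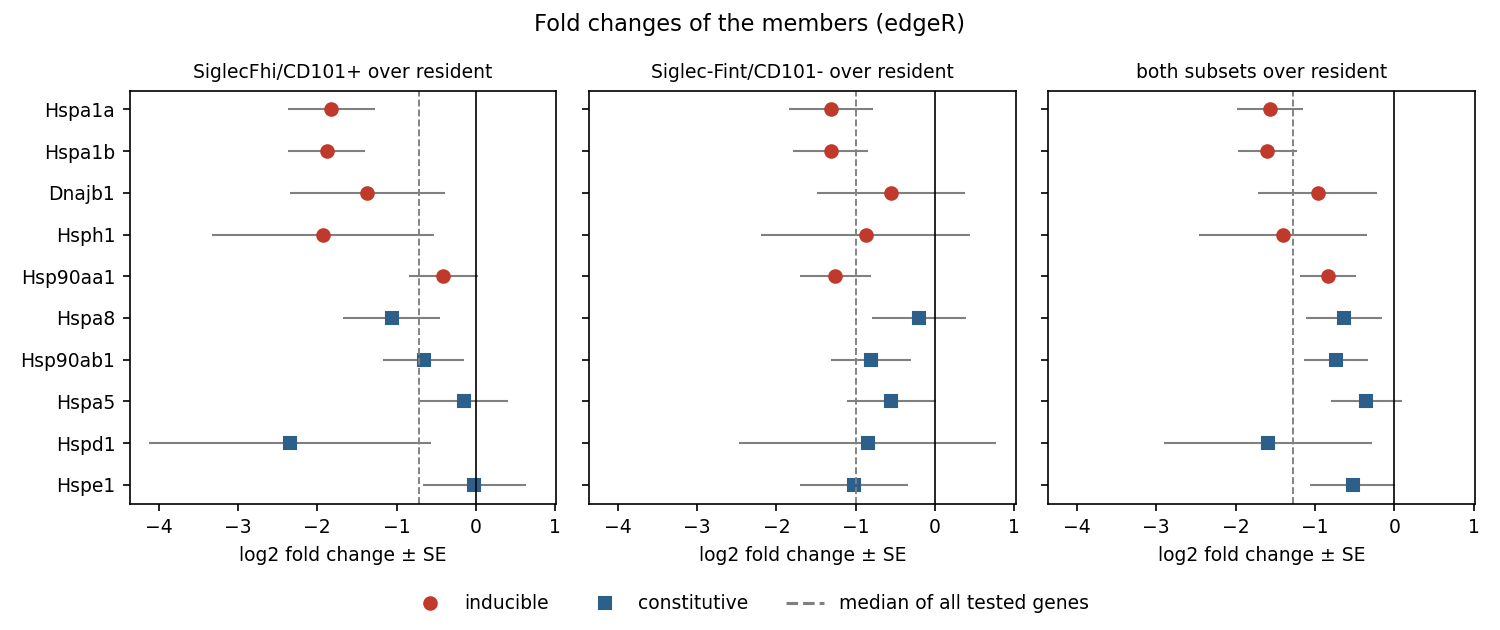
Log2 fold change of each member over resident libraries (x axis, edgeR, bars are ± SE) for SiglecFhi/CD101+, Siglec-Fint/CD101- and both subsets, with circles for inducible and squares for constitutive members and a dashed line at the median of all 11828 tested genes. In both subsets over resident, 3 inducible members and 1 constitutive member lie left of the dashed line at -1.28.

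The direct comparison of inducible with constitutive relatives used count ratios within each library, which no scaling can move. Hspa1a to Hspa8 had a ratio of 2.86 and 2.35 in SiglecFhi/CD101+, 1.281 and 3.72 in Siglec-Fint/CD101-, against 2.31, 6.80, 3.24 and 5.37 in resident replicates 3 to 6. Hspa1b to Hspa8 had a ratio of 2.54 and 5.02 in SiglecFhi/CD101+, 2.47 and 3.79 in Siglec-Fint/CD101-, against 3.51, 8.59, 4.94 and 7.88 in resident replicates 3 to 6. Both ratios overlapped between subset and resident libraries and were high in resident replicates 4 and 6. On the log2 scale with a pseudocount of 0.5, the mean for Hspa1a to Hspa8 was 1.25 ± 0.65 in subset libraries and 2.02 ± 0.70 in resident libraries (SD, n = 4 each), a difference of -0.77 (exact two-sided permutation test p = 0.2, adjusted over 3 ratios p = 0.3). The mean for Hspa1b to Hspa8 was 1.73 ± 0.49 in subset libraries and 2.55 ± 0.60 in resident libraries (SD, n = 4 each), a difference of -0.82 (exact two-sided permutation test p = 0.143, adjusted p = 0.3). The smallest p that 4 against 4 libraries can give is 0.0286. Neither difference passed the test, which does not show that the ratios were alike. Hsp90aa1 to Hsp90ab1 had a log2 mean of 0.53 ± 0.66 in subset libraries and 0.51 ± 0.59 in resident libraries (SD, n = 4 each), a difference of 0.024 (exact two-sided permutation test p = 0.971, adjusted p = 0.971). Its sign turned to -0.30 without SiglecFhi/CD101+ replicate 2 and to -0.24 without resident replicate 3.

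**Figure D3:**
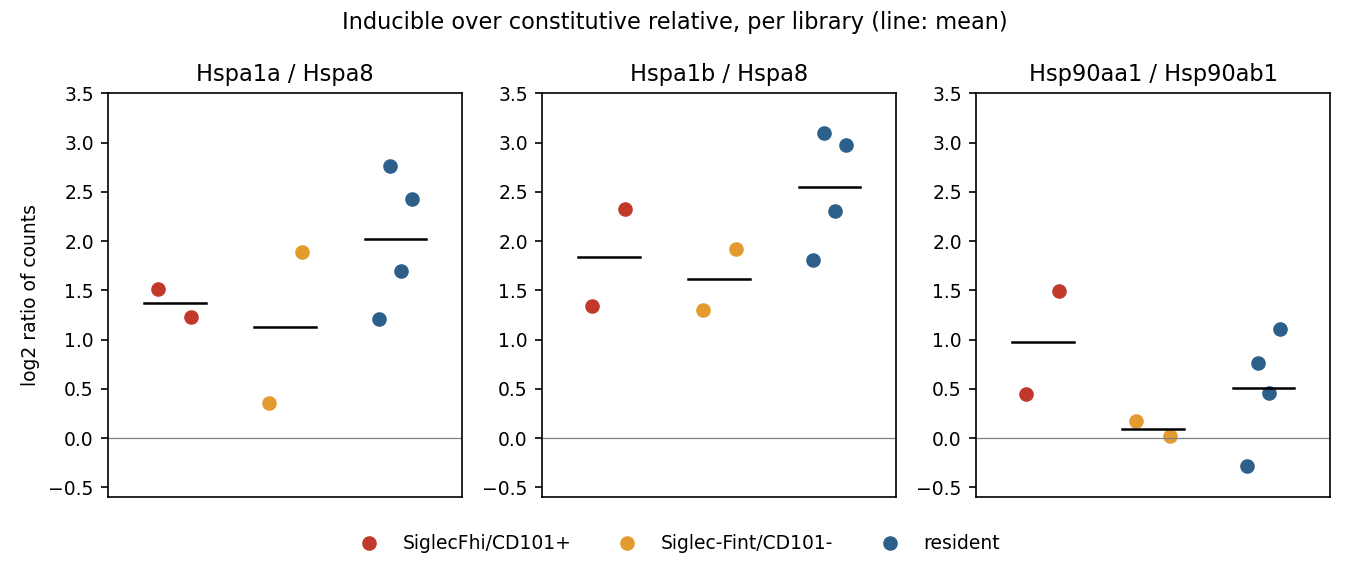
Log2 ratio of counts (y axis) of an inducible gene to its constitutive relative in each library, SiglecFhi/CD101+ (n = 2), Siglec-Fint/CD101- (n = 2) and resident (n = 4), with a line at the group mean. Subset and resident libraries overlap for all 3 ratios.

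Among the resident libraries, the inducible sum varied more than the constitutive sum. Summed, the 5 inducible members held 794 and 666 CPM in SiglecFhi/CD101+, 808 and 755 CPM in Siglec-Fint/CD101-, and 1092, 2630, 1354 and 2431 CPM in resident replicates 3 to 6. The 5 constitutive members held 606 and 524 CPM in SiglecFhi/CD101+, 478 and 494 CPM in Siglec-Fint/CD101-, and 691, 903, 670 and 823 CPM in resident replicates 3 to 6. Over resident libraries the coefficient of variation was 40.9% for the inducible sum and 14.4% for the constitutive sum (n = 4). By gene it was 51.3% for Hspa1a, 44.1% for Hspa1b, 36.3% for Dnajb1 and for Hsph1, and 27.9% for Hsp90aa1. Among constitutive members it was 46.3% for Hspe1, 32.5% for Hspa5, 15.8% for Hspd1, 11.1% for Hsp90ab1 and 9.96% for Hspa8. By gene the classes thus overlapped. Hspa5, Hspd1 and Hspe1 together held 219, 487, 265 and 426 CPM in resident replicates 3 to 6, also higher in replicates 4 and 6. The inducible share of all member counts was 56.7% and 56.0% in SiglecFhi/CD101+, 62.8% and 60.5% in Siglec-Fint/CD101-, against 61.3%, 74.4%, 66.9% and 74.7% in resident replicates 3 to 6. Neither sum overlapped between subset and resident libraries on this scale, and no test was made on a sum. With CPM taken of the counts outside the mitochondrial genes, the inducible sum still did not overlap, at 2431 to 2711 in subset libraries against 3057 to 6902 in resident libraries. On that scale the constitutive sum overlapped, at 1438 to 2072 in subset libraries against 1933 to 2336 in resident libraries.

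**Figure D4:**
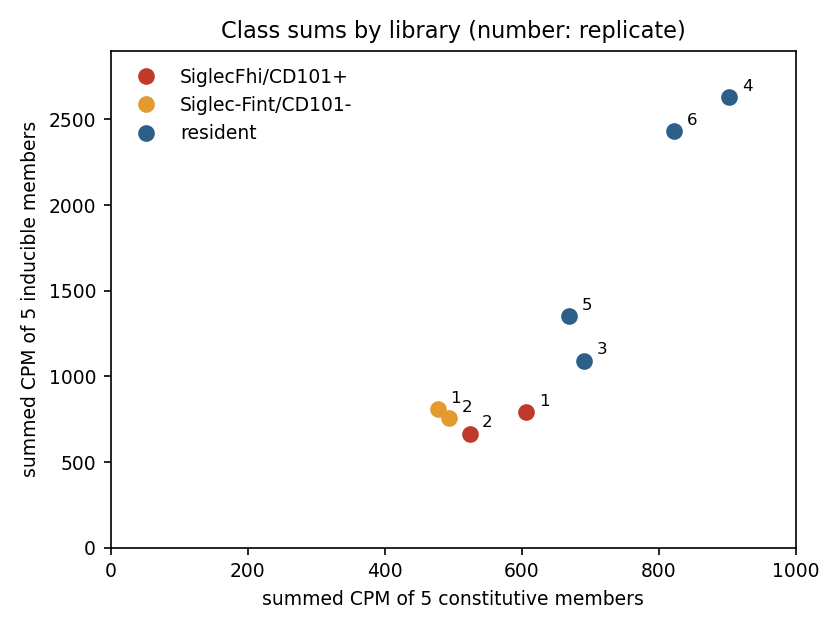
Summed CPM of the 5 inducible members (y axis) against summed CPM of the 5 constitutive members (x axis), 1 point per library with its replicate number, coloured by group, both linear axes from 0. Resident replicates 4 and 6, at 2630 and 2431 CPM of inducible members, stand apart from all other libraries, which lie between 666 and 1354 CPM.

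Markers of some other cell types also set resident replicates 3 and 5 apart from replicates 4 and 6, and those of others did not. Epithelial markers (7 of 7 with counts in each group) summed to 3843 and 3539 CPM in SiglecFhi/CD101+, 3733 and 6610 CPM in Siglec-Fint/CD101-, and 5065, 707, 10690 and 897 CPM in resident replicates 3 to 6. Macrophage and monocyte markers (10 of 10) summed to 171 and 200 CPM in SiglecFhi/CD101+, 702 and 261 CPM in Siglec-Fint/CD101-, and 380, 778, 271 and 654 CPM in resident replicates 3 to 6. In resident replicates 3 to 6, the split also held for endothelial and fibroblast markers, at 427, 161, 1007 and 340 CPM. It held for dendritic cell (322, 491, 214 and 345 CPM) and mast cell and basophil markers (2.17, 16.7, 1.54 and 64.6 CPM). It did not hold for erythroid (9792, 1466, 988 and 2350 CPM) or neutrophil markers (310, 199, 125 and 480 CPM). Nor did it for B and plasma cell (189, 187, 125 and 77.7 CPM) or T and NK cell markers (14.2, 20.1, 18.8 and 9.04 CPM). Eosinophil markers did not follow it strictly, at 339, 453, 185 and 295 CPM in resident replicates 3 to 6. Between groups, T and NK cell markers (6, 5 and 7 of 8 with counts) summed to 60.4 to 156 CPM in SiglecFhi/CD101+ and 130 to 147 CPM in Siglec-Fint/CD101-, against 9.04 to 20.1 CPM in resident libraries. B and plasma cell markers (7 of 7) summed to 218 to 559 CPM in SiglecFhi/CD101+ and 345 to 891 CPM in Siglec-Fint/CD101-, against 77.7 to 189 CPM in resident libraries. Nkg7 and Klrb1c of the T and NK list were at 0 in SiglecFhi/CD101+, Cd8a, Ncr1 and Klrb1c in Siglec-Fint/CD101-, and Ncr1 in resident libraries. Neutrophil markers (5, 6 and 7 of 8 with counts) summed to 297 to 1093 CPM in SiglecFhi/CD101+ and 593 to 1530 CPM in Siglec-Fint/CD101-, against 125 to 480 CPM in resident libraries, so that Siglec-Fint/CD101- alone stood clear of resident. Of these, Ly6g, Ngp and Camp were at 0 in SiglecFhi/CD101+, Camp and Cxcr2 in Siglec-Fint/CD101-, and Ly6g in resident libraries. Dendritic cell markers (8 of 8) summed to 76.2 to 141 CPM in SiglecFhi/CD101+ and 169 to 241 CPM in Siglec-Fint/CD101-, against 214 to 491 CPM in resident libraries. Mast cell and basophil markers (1, 1 and 5 of 6) summed to 0 to 0.530 CPM in SiglecFhi/CD101+ and 0 to 0.727 CPM in Siglec-Fint/CD101-, against 1.54 to 64.6 CPM in resident libraries, with Tpsb2 at 0 in every library and Mcpt8, Ms4a2, Fcer1a and Cma1 at 0 in the subsets. The part of these other cells in the chaperone levels was not tested.

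Immediate early genes are transcription factors and regulators whose transcripts respond quickly to stimuli and, like those of inducible heat shock genes, to cell handling. The 19 listed genes summed to 1720 and 1935 CPM in SiglecFhi/CD101+, 3056 and 2031 CPM in Siglec-Fint/CD101-, and 3004, 4203, 2313 and 3508 CPM in resident replicates 3 to 6. Replicates 4 and 6 were again above 3 and 5, and Siglec-Fint/CD101- replicate 1 lay within the resident range. In both subsets over resident, edgeR called 0 of 19, and 7 were lower and 0 higher at an unadjusted p under 0.05, where 21% and 1.91% of all genes were. Over the 19 genes the log2 fold changes had a median of -0.74, against -1.28 over all genes. Atf3, a stress-induced repressor, had the smallest p of these, with 194 ± 56.4 CPM in both subsets and 420 ± 166 CPM in resident libraries (SD, n = 4 each) and a log2 fold change of -1.14 ± 0.39 (SE, edgeR adjusted p = 0.135). Zfp36, which destabilises cytokine messages, gave -1.29 ± 0.47 and the nuclear receptor Nr4a1 gave -1.27 ± 0.49 (SE, edgeR adjusted p = 0.149 and 0.160). DESeq2 called 1 of these genes lower in SiglecFhi/CD101+ over resident, and the same gene lower in SiglecFhi/CD101+ over Siglec-Fint/CD101-, Egr2, with 0 counts in SiglecFhi/CD101+, 136 in Siglec-Fint/CD101-, and with 576 counts in resident libraries.

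Among 27 tested regulators and cochaperones of the cytosol, edgeR called 0 in each of the 4 comparisons, and 5 were lower and 0 higher at an unadjusted p under 0.05 in both subsets over resident, where 21% of all genes were lower. Their median log2 fold change there was -1.09, against -1.28 over all genes. Hspbp1, an exchange factor for Hsp70, had 11 counts in the 4 subset libraries and 2889 in the resident libraries. It averaged 1.72 ± 1.04 CPM in both subsets and 57.9 ± 27.3 CPM in resident libraries (SD, n = 4 each), and the groups did not overlap, with 0.530 to 3.05 CPM in both subsets against 28.6 to 93.0 CPM in resident libraries. Its log2 fold change was -5.06 ± 0.99 (SE, edgeR adjusted p = 0.0787), and DESeq2 called it lower in SiglecFhi/CD101+ over resident, in Siglec-Fint/CD101- over resident and in both subsets over resident. In these comparisons DESeq2 called 567 of 11842, 440 of 11081 and 742 of 11842 genes lower. Hspa14, a ribosome-bound Hsp70, had 0 counts in the subset libraries and 182 in resident libraries, at least 8.23-fold lower when set against 3 counts over the subset libraries. Hspa4l, of the Hsp110 family, averaged 1.09 ± 2.17 CPM in both subsets and 7.06 ± 4.22 CPM in resident libraries (SD, n = 4 each, edgeR adjusted p = 0.166).

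Of 14 subunits of the cytosolic chaperonin and of prefoldin, which fold actin and tubulin, edgeR called 0 and 1 was lower at an unadjusted p under 0.05 in both subsets over resident, where 21% of all genes were lower. That gene was Cct6a, a chaperonin subunit, with 16.4 to 48.2 CPM in SiglecFhi/CD101+ and 0.727 to 1.24 CPM in Siglec-Fint/CD101-, against 62.4 to 91.3 CPM in resident libraries. Its log2 fold change in both subsets over resident was -3.65 ± 0.77 (SE, edgeR adjusted p = 0.0857), and DESeq2 called it lower there and in Siglec-Fint/CD101- over resident, and higher in SiglecFhi/CD101+ over Siglec-Fint/CD101-. Of all genes, DESeq2 called 742 of 11842 and 440 of 11081 lower and 623 of 9907 higher in these comparisons. The median log2 fold change of the list was -0.38, against -1.28 over all genes. Its summed level was 318 and 289 CPM in SiglecFhi/CD101+, 563 and 146 CPM in Siglec-Fint/CD101-, and 398 to 499 CPM in resident libraries, so replicates 1 and 2 of Siglec-Fint/CD101- lay on either side of the resident range.

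Of 20 tested chaperones and unfolded protein response genes of the endoplasmic reticulum, edgeR called 0, and 2 were lower and 0 higher at an unadjusted p under 0.05 in both subsets over resident, where 21% of all genes were lower. Over the list the log2 fold changes had a median of -0.65, against -1.28 over all genes. The 2 genes were Atf4, the transcription factor of the integrated stress response, and Pdia6, a disulfide isomerase. Atf4 averaged 98.8 ± 54.8 CPM in both subsets and 197 ± 42.9 CPM in resident libraries (SD, n = 4 each), with a log2 fold change of -1.04 ± 0.46 (SE, edgeR adjusted p = 0.199). Pdia6 averaged 43.6 ± 32.0 CPM in both subsets and 118 ± 50.8 CPM in resident libraries (SD, n = 4 each), with -1.45 ± 0.67 (SE, edgeR adjusted p = 0.212). Their summed level was 458 and 657 CPM in SiglecFhi/CD101+, 776 and 671 CPM in Siglec-Fint/CD101-, and 784 to 963 CPM in resident libraries. DESeq2 called 0 of this list over resident and 1 between the subsets, Sdf2l1, with 1.63 ± 1.44 CPM in SiglecFhi/CD101+ and 36.2 ± 12.6 CPM in Siglec-Fint/CD101- (SD, n = 2 each, edgeR adjusted p = 0.243). Between the subsets DESeq2 called 464 of 9907 genes lower in SiglecFhi/CD101+.

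Of 9 mitochondrial chaperones and proteases, edgeR called 0, and 3 were lower and 0 higher at an unadjusted p under 0.05 in both subsets over resident, where 21% of all genes were lower. Hspa9, the mitochondrial Hsp70, had 60 counts in SiglecFhi/CD101+ and 0 in Siglec-Fint/CD101-, against 900 in resident libraries, which makes Siglec-Fint/CD101- at least 18.7-fold lower than resident with 3 counts set over that group. DESeq2 called it lower in Siglec-Fint/CD101- over resident and in both subsets over resident, and higher in SiglecFhi/CD101+ over Siglec-Fint/CD101-. DESeq2 also called the protease Htra2 lower in SiglecFhi/CD101+ over resident. Of all genes, DESeq2 called 440 of 11081 lower in Siglec-Fint/CD101- over resident and 742 of 11842 in both subsets over resident. In SiglecFhi/CD101+ over resident it called 567 of 11842 lower. In SiglecFhi/CD101+ over Siglec-Fint/CD101- it called 623 of 9907 higher. Clpx, the unfoldase of a matrix protease, had 0 counts in subset libraries and 97 in resident libraries. The list's fitted median was -4.43, against a fitted median of -1.28 over all genes. With groups without counts set to 3 counts the list's median was -1.19, and no median over all genes was taken in that way. limma-voom called 0 genes of any of these lists in any of the 4 comparisons. In the 3 other comparisons between 0 and 5 genes of a list had an unadjusted p under 0.05 in edgeR in 1 direction. The most was 5 of 27 cytosolic regulators and cochaperones, lower in Siglec-Fint/CD101- over resident. Of all genes, 13.8% were lower and 1.9% higher there. The shares were 13.1% and 3.65% in SiglecFhi/CD101+ over resident, and 7.96% and 9.98% in SiglecFhi/CD101+ over Siglec-Fint/CD101-.

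The genes whose centred log2 CPM lay nearest to that of Hspa1b over the 8 libraries, by root mean square distance, were St3gal1, a sialyltransferase, at 0.27, Cd14, a receptor for bacterial lipopolysaccharide, at 0.32, and Nfe2l2, a transcription factor of the oxidative stress response, at 0.34. Hspa1a lay at 0.40. Cd14 averaged 39.1 CPM in SiglecFhi/CD101+ and 69.7 CPM in Siglec-Fint/CD101-, against 178 CPM in resident libraries. Among the genes nearest to Hspa8 were the ferritin light chain Ftl1 at 0.11 and the ribosomal protein Rpl28 at 0.18, while Hspa1b lay at 0.63 from it. These distances are descriptions over libraries that share depth and makeup within a group.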

How the data were processed

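RNA of sorted eosinophils was sequenced by CEL-Seq on an Illumina NextSeq instrument in 8 libraries, per the labels. The authors deposited 1 table of raw counts for each library, with whole numbers for every Ensembl identifier and no scaling. Per the submitters' processing notes, their tools included TopHat2 2.1.0, Bowtie2 2.2.6, HTSeq 0.6.1, DESeq2 1.28.0, cutadapt 1.10, Trim Galore and FastQC 0.11.5. Not given in the sources used here are the build, annotation, strand setting and use of molecular identifiers. If reads were counted, counting limits cover counting error only. Symbols were matched for 54409 of 54446 identifiers through GENCODE M21 on GRCm38, also the source of positions, and promoters come from RefSeq on GRCm38.p6.

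Counts were fitted in R 4.3.3 with edgeR 4.0.16: TMM, filterByExpr (11828 genes kept), a group-means model over all 8 libraries and robust two-sided quasi-likelihood tests with Benjamini-Hochberg adjustment over all genes. The common biological coefficient of variation was 1.12. The fit was tested on simulated data, with a pass criterion set at a lower spread than these libraries have. That check does not give the power of the tests here. DESeq2 1.42.0 and limma 3.58.1 (voom), 3 other scalings, other filters, thinning and leaving out libraries were alternatives. Ratios used exact permutation tests in SciPy 1.17.1. Groups came from sample titles. No 2 libraries held identical values. Same-numbered libraries of the subsets did not deviate together (correlation 0.0066 over 11828 genes), so no block was used. The members and lists were chosen with earlier results of these data known. All 10 members are named, with up to 3 genes of each other list by smallest p and the 3 genes nearest to Hspa1b and to Hspa8, of which 1 is not reported here. Egr2, Sdf2l1 and Htra2 are also named because DESeq2 called them.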

Additional observations from a re-analysis of the deposited data

Results flagged for a closer look

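Hspa8 had 107 CPM in resident replicate 5, the lowest of the resident libraries, where replicates 3, 4 and 6 lay between 130 and 132 CPM. The gap to the nearest library was larger than 0.829 of the range, Dixon's 95% critical value for 4 samples. The test was made on 13 groups of 4 values, and chance flags about 1 in 20 such groups.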

How the results depend on the processing

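Of 954 alternatives to the values reported, 906 kept direction and side of the threshold, 10 passed it, 0 lost it and 38 reversed. The cause of a reversal was not tested. Of the 10, 3 were counts of members called, which repeat calls of single genes. No member or ratio passed in the main analysis, so none could lose the threshold. Some alternatives could not pass it, such as a threshold of 0.01 on the main fit. Exact permutation tests of ratios in 4 against 3 libraries cannot go below p = 0.0571. Without a filter on low counts (21197 genes), 2 members, Hspa1a and Hspa1b, were called lower in SiglecFhi/CD101+ over resident (edgeR adjusted p = 0.0418 and 0.0154). This pair was also called lower in both subsets over resident (edgeR adjusted p = 0.0243 and 0.00665). Genome-wide calls without the filter were 253 higher and 117 lower in SiglecFhi/CD101+ over resident, in place of 3 and 0. In both subsets over resident they were 38 higher and 163 lower, in place of 3 and 0. Scaled by library totals alone, 3 members were called lower in both subsets over resident, Hspa1a, Hspa1b and Hsp90aa1 (0.0263, 0.0309 and 0.0487), where the median of all genes was -2.09 in place of -1.28 and genome-wide calls were 15 higher and 758 lower in place of 3 and 0. Over the alternatives in both subsets over resident, Hspa1a ran from -2.39 to -1.14 and Hspa1b from -2.29 to -1.17. Genome-wide, DESeq2 called 498 higher and 567 lower in SiglecFhi/CD101+ over resident, 98 and 440 in Siglec-Fint/CD101- over resident, 213 and 742 in both subsets over resident, and 623 and 464 between the subsets. limma-voom called 2, 2, 5 and 0 higher and 0 lower.

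Reversed log2 fold changes in SiglecFhi/CD101+ over resident were 0.054 (RLE) and 0.040 (DESeq2) for Hsp90aa1. For Hspa5 they were 0.34 (RLE), 0.076 (upper quartile), 0.32 (DESeq2) and 0.097 (thinned). For Hspe1 they were 0.45 (RLE), 0.18 (upper quartile), 0.068 (mitochondrial genes left out, and a filter of 20 counts in 2 libraries), 0.44 (DESeq2), 0.038 (limma-voom), 0.040 (the compared groups alone) and 0.22 (thinned). Leaving out single libraries gave -0.96 to 0.24 for Hspa5 and -0.15 to 0.41 for Hspe1. In Siglec-Fint/CD101- over resident, Hspa8 reversed to 0.17 (RLE), 0.094 (upper quartile) and 0.16 (DESeq2), and leaving out single libraries gave -0.87 to 0.21 for Hspa8, -1.70 to 0.038 for Dnajb1 and -9.84 to 0.14 for Hspd1. In both subsets over resident, Hspa5 reversed to 0.081 (RLE) and 0.067 (DESeq2). In SiglecFhi/CD101+ over Siglec-Fint/CD101-, limma-voom gave -0.00668 for Hsp90ab1 and 0.26 for Hspd1. Leaving out single libraries there gave -1.96 to 0.22 for Dnajb1, -5.26 to 1.65 for Hsph1, -0.87 to 0.65 for Hsp90ab1, -0.37 to 0.83 for Hspa5 and -3.03 to 7.41 for Hspd1. The Hspd1 values -9.84 and 7.41, both without Siglec-Fint/CD101- replicate 1, leave that group at 0 and depend on the prior count. The ratio of Hsp90aa1 to Hsp90ab1 ran from -0.30 to 0.22.

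With a replicate block, possible between the subsets alone, 0 members were called and Hspd1 reversed to 0.34. Whether same-numbered libraries shared more than a number is not given in the labels. Subset libraries, with 444902 to 552121 counts outside mitochondrial genes, limit Hspd1, Hsph1 and Dnajb1 most. A lone library of a group left by leaving out another is assumed to vary like the other groups.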
